A study of Sus scrofa with 12 samples.

Results

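The genes described here are the nuclear-encoded subunits of complex I, the NADH:ubiquinone oxidoreductase of the mitochondrial respiratory chain. They were chosen by pig symbol, as every gene whose symbol starts with NDUFA, NDUFB, NDUFC, NDUFS or NDUFV, leaving out the assembly factors named NDUFAF. Among 31908 Ensembl gene identifiers, 31 carried such a symbol in the reference annotation. Of these 31 genes, 25 reached a mean of 1 FPKM over the 12 libraries and entered the test, and 6 did not. A supplementary gene table of the study named 2 further members, NDUFA3 and NDUFS7, which are given with that origin wherever they appear. The symbols NDUFA1, NDUFA12, NDUFA13, NDUFB3, NDUFC1 and NDUFV3 matched no identifier, and these genes were not analysed here.

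The samples were porcine oocytes (Sus scrofa) taken after 0h, 22h or 46h of in vitro maturation, with 4 libraries for each time. Fully grown oocytes came from the antral follicles of prepubertal gilts and stayed inside their cumulus-oocyte complexes during culture, in a medium with follicular fluid, epidermal growth factor and gonadotropins. Oocytes of all 3 groups were stripped of cumulus cells before lysis, and each library was made from a pool of oocytes. The labels name no genetic change or drug. The 0h oocytes were not cultured in this medium, so time in culture and exposure to its hormones and growth factor cannot be told apart between 0h and the later groups. In the pig ovary such oocytes rest at the germinal vesicle stage, and in culture they resume meiosis and go on to metaphase II. The labels do not say whether the 4 libraries of a stage came from separate animals or cultures, so the p-values measure the spread between these libraries, which may be technical.

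Complex I is an L-shaped assembly in the inner mitochondrial membrane. In the arm that stands in the matrix, the N module oxidises NADH and the Q module hands the electrons to ubiquinone, while the membrane arm pumps protons. Its ND subunits are translated inside mitochondria from mitochondrial DNA, whereas the subunits described here are made in the cytosol and imported, so that their mRNAs belong to the store of maternal transcripts of the oocyte. The fully grown oocyte makes little new RNA and passes its mitochondria on to the embryo.

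The libraries held transcripts of oocytes. All 16 oocyte markers matched were above 0 in every library, and their summed level lay between 32808 and 43675 FPKM at 0h, between 40276 and 50678 at 22h and between 39592 and 45751 at 46h. Within that sum BTG4 had a median of 15745 FPKM at 0h and 27966 at 46h, and GDF9 one of 1098 and then 38.4. At 46h against 0h, 11 of the 16 markers fell and 2 rose, where 39.1% of all genes tested fell and 16.8% rose. Of 13 cumulus and granulosa cell markers matched, 3 passed the filter (STAR, FST and KITLG), and the summed list lay between 16.8 and 25.6 FPKM at 0h, between 14.1 and 19.5 at 22h and between 16.9 and 23.7 at 46h. INHA, an inhibin subunit of granulosa cells, and LHCGR were listed at 0 in every library, which in a file without counts does not show absence. None of the 3 tested markers passed the thresholds in a comparison. Read depth is unknown, since FPKM, which scales fragments by transcript length and library total, carries no counts. Replicate 4 of 0h stood higher over all genes tested, with a median of 9.66 FPKM, where the others of 0h lay between 6.88 and 8.07. It also had 7895 genes at 1 FPKM or more, where the others had between 6939 and 7342. The 13 mitochondrially encoded protein genes held between 1.79% and 3.76% of all FPKM at 0h and between 12.8% and 16.7% at 46h, with the 22h libraries in between. With TPM computed without those genes, the median log2 change of the 25 members was -0.95 at 22h against 0h, -2.35 at 46h against 22h and -2.66 at 46h against 0h, next to -1.03, -2.12 and -2.67 as deposited.

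The summed level of the subunit transcripts was lower at each later stage of maturation. Over the 31 genes it was 2470, 2538, 3207 and 4064 FPKM in the 4 libraries at 0h, 1675, 1244, 1137 and 1057 at 22h and 542, 456, 539.7 and 548 at 46h. Every 22h library lay below every 0h library, and every 46h library below every 22h library. The genes made up between 0.351% and 0.520% of all FPKM at 0h, between 0.144% and 0.217% at 22h and between 0.0584% and 0.0684% at 46h. In a pool of oocytes, a lower level in each oocyte and a loss from some of them cannot be told apart. Since cDNA was primed at the poly(A) tail, fewer transcripts and shorter tails cannot be told apart either.

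Changes were tested with limma on log2(FPKM + 1) over the 7013 genes whose mean reached 1 FPKM, and a gene is said to rise or fall where the adjusted p was under 0.05 and the fold change over 1.5. At 22h against 0h, 13 of the 25 members fell, where 18.9% of all genes tested did, and 0 rose, where 7.84% of all genes did. No member rose at an unadjusted p under 0.05 either, a looser threshold that at least 7.84% of all genes passed as higher. At 46h against 22h, 18 fell, beside a share of 32.6% among all genes, and 1 rose, beside 9.87%. At 46h against 0h, 21 fell, beside 39.1%, and 0 rose, beside 16.8% (55.9% of all genes in either direction). Again 0 rose at an unadjusted p under 0.05, which at least 16.8% of all genes passed as higher. The median log2 fold change of the members was -1.03, -2.12 and -2.67 in that order, and that of all genes tested was -0.00, -0.26 and -0.25. The size of the members' median depends on the pseudocount, and with 0.1 in place of 1 it was -2.82 at 46h against 22h and -4.20 at 46h against 0h. These comparisons share libraries, so their counts are not independent of each other.

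The libraries of different stages often did not overlap at all. Each of the 22h libraries was below each of the 0h libraries for 11 of the 25 members, where this held for 18.6% of all genes tested. For 46h and 22h it held for 18 members (35.4% of all genes), and for 46h and 0h for 21 members (39.2% of all genes). The median member kept 42.4% of its mean 0h level at 22h and 3.49% at 46h.

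**Figure D1:**
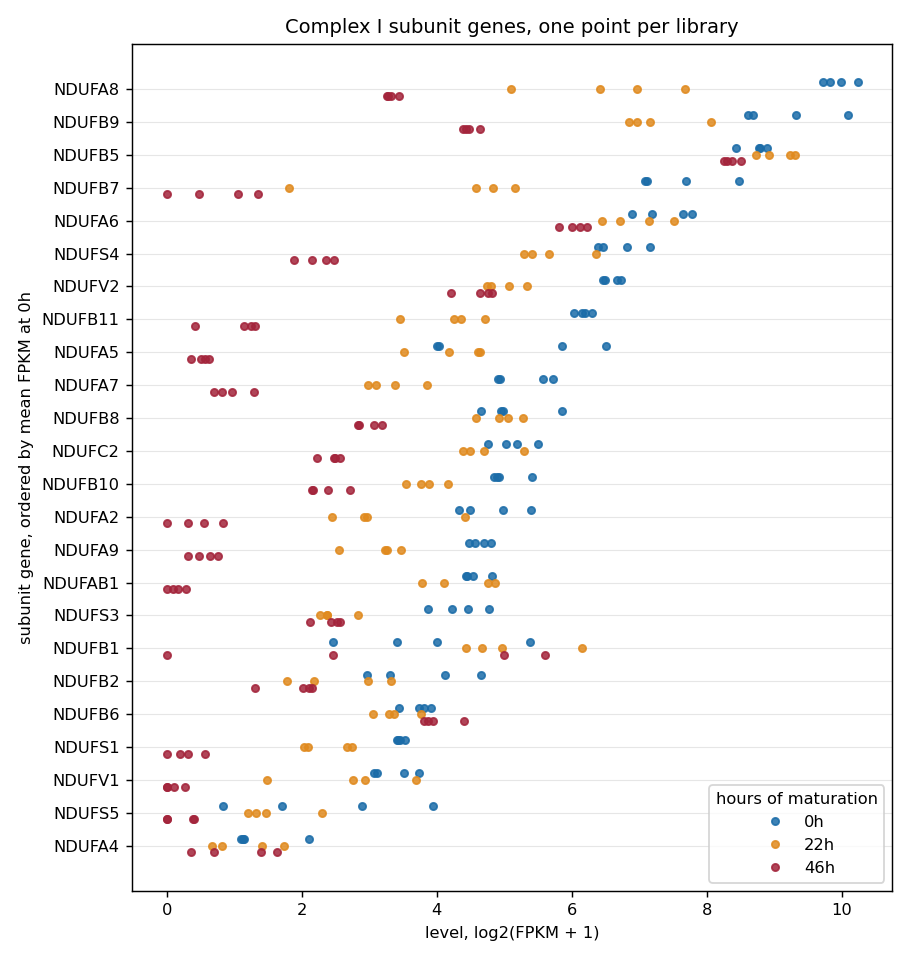
Level of 24 of the 25 tested subunit genes as log2(FPKM + 1) on the horizontal axis, with one point per library coloured by hours of maturation and genes ordered by their mean at 0h. For 20 of these genes all 46h points lie to the left of all 0h points, and the exceptions are NDUFB5, NDUFB6, NDUFB1 and NDUFA4.

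The subunits sit together in the complex, but their transcripts did not stand at equal levels. Among the tested members, FPKM, a level per transcript length, ranged between means of 1.72 and 996 at 0h, between 1.34 and 537 at 22h and between 0.0725 and 328 at 46h. The order of the members also shifted, with a Spearman correlation over the 25 mean levels of 0.848 between 0h and 22h, 0.638 between 22h and 46h and 0.475 between 0h and 46h, given as a description. The genes NDUFB5, NDUFA8 and NDUFB9 had the highest means over the 12 libraries.

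NDUFA8, an accessory subunit of the proximal membrane arm that faces the intermembrane space and is held by disulfide bonds, was the most abundant member at 0h. It stood at 847, 912, 1013 and 1210.2 FPKM at 0h, 204, 33.5, 124 and 84.9 at 22h and 9.91, 9.03, 8.59 and 8.70 at 46h. The stages are far apart, with no overlap, and the 22h libraries are the most spread relative to their mean. It fell by 3.40 on the log2 scale at 22h against 0h (SE 0.38, adjusted p = 3.43e-05) and fell by 3.22 at 46h against 22h (SE 0.38, adjusted p = 9.46e-06), and its mean at 46h was 0.910% of that at 0h. Its share of the members' summed FPKM lay between 29.8% and 35.9% at 0h and between 1.59% and 1.98% at 46h.

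NDUFB9, a distal membrane arm subunit of the LYR protein family that docks the mitochondrial acyl carrier protein, was second at 0h. Its values were 412, 391, 639 and 1090.5 FPKM at 0h, 266, 125, 142 and 114 at 22h and 20.7, 20.03, 24.1 and 21.4 at 46h. No stage overlaps another, and replicate 4 of 0h is well above the other 0h libraries. That library also had the highest median of its stage over all genes tested. It fell by 1.92 at 22h against 0h (SE 0.31, adjusted p = 4.89e-04) and fell by 2.77 at 46h against 22h (SE 0.31, adjusted p = 5.60e-06).

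NDUFB5, a distal membrane arm subunit with a single membrane-spanning helix, was the most abundant member at 22h and 46h. It read 444, 438, 475 and 347 FPKM at 0h, 601, 636, 424 and 487 at 22h and 316, 304, 362 and 330.3 at 46h. The 46h libraries are all below the 22h libraries and 1 of them, replicate 3, lies within the range of the 0h libraries. The change was 0.33 (SE 0.17, adjusted p = 0.153) at 22h against 0h, then -0.69 (SE 0.17, adjusted p = 0.00359) at 46h against 22h, where it fell, and -0.37 (SE 0.17, adjusted p = 0.0702) at 46h against 0h with a 95% interval of -0.73 to -0.01. With median-of-ratios scaling the fall after 22h was -0.34 and not past the thresholds, and the change over the whole period was 0.03. NDUFB5 made up between 8.53% and 18.0% of the members' summed FPKM at 0h, between 35.9% and 51.1% at 22h and between 58.4% and 67.2% at 46h.

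**Figure D2:**
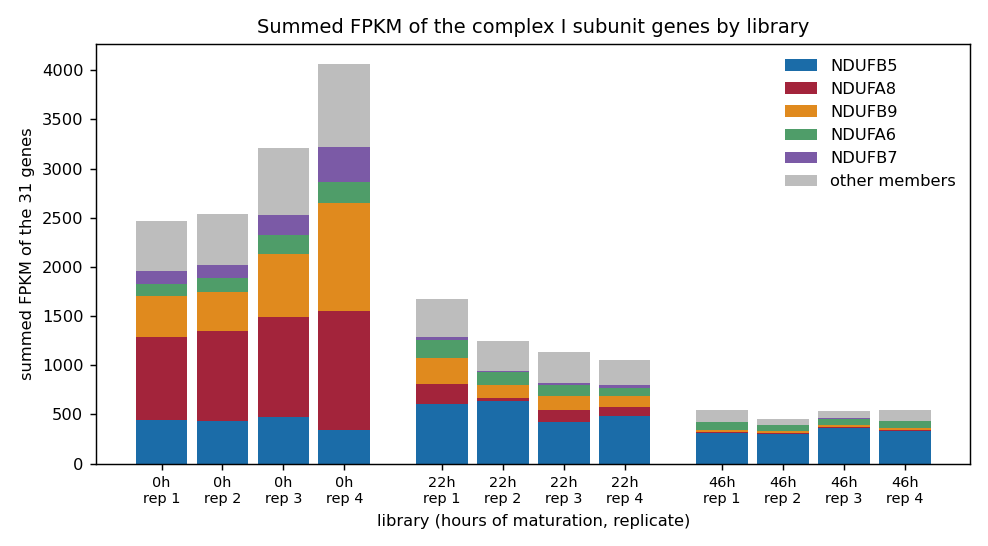
Summed FPKM of the 31 subunit genes in each library, stacked by gene, with libraries on the horizontal axis by hours of maturation and replicate. The sum runs from 2470 to 4064 at 0h and from 456 to 548 at 46h, and NDUFB5 makes up 58.4% to 67.2% of each 46h bar.

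In the RefSeq annotation of Sscrofa11.1, NDUFA8 lies at chr1:262243225-262258186 on the minus strand in 4 exons and NDUFB5 at chr13:117656411-117671515 on the plus strand in 6 exons. Their promoter windows, 250 bases before to 50 after the annotated start, are shown because both genes were abundant at 0h and kept 0.910% and 77.1% of their mean level at 46h. In the window of NDUFA8, capitals mark the NRF1 core GCNTGCGC on either strand, the binding word of a factor known for activating respiratory chain genes. In that of NDUFB5, capitals mark CCGGAA (ETS core, here on the minus strand) and ATGGCG (YY1 core).
NDUFA8, chr1:262258137-262258436, minus strand: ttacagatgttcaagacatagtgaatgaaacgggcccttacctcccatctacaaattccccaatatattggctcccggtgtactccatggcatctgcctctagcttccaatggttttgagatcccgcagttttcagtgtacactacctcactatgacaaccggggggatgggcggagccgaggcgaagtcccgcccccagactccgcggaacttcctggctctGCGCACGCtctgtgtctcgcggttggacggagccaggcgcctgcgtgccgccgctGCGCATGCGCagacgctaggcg
NDUFB5, chr13:117656161-117656460, plus strand: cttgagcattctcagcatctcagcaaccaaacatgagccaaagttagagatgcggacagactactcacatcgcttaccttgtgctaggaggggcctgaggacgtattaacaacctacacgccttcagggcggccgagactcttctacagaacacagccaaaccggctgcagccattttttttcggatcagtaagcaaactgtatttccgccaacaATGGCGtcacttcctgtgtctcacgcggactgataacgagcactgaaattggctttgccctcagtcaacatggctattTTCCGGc
The NRF1 core was in the window of 9 of the 25 tested members (36.0%), NDUFA5, NDUFA6, NDUFA8, NDUFA9, NDUFAB1, NDUFB10, NDUFB11, NDUFB6 and NDUFV2, and in 21.2% of the 5771 tested genes with a gene model and 13.5% of 19531 protein-coding genes. Searched likewise on both strands, CCGGAA was in 36.0% of the tested members and 27.1% of tested genes, GGGCGG (GC box) in 68.0% and 64.2%, CCAAT in 40.0% and 37.5%, and ATGGCG in 28.0% and 14.6%. These are matches of letters and say nothing of binding in the oocyte.

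The core of the N module is made of NDUFV1, NDUFV2 and NDUFS1, and all 3 fell at 46h against 0h, as 39.1% of all genes tested did. NDUFV1 carries the FMN cofactor at which NADH is oxidised. It read 7.38, 7.65, 10.5 and 12.4 FPKM at 0h, 5.79, 1.80, 11.9 and 6.70 at 22h and 0, 0.08, 0.21 and 0 at 46h. The 22h libraries overlap those of 0h, and the 46h libraries are all close to 0. It did not pass at 22h against 0h (-0.64, 95% interval -1.38 to 0.09, adjusted p = 0.169), and fell by 2.62 at 46h against 22h (SE 0.34, adjusted p = 2.20e-05). Without replicate 3 of 22h, the highest of that stage, the change at 22h was -0.96 and passed, and without replicate 2, the lowest, it was -0.23.

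NDUFS1, the largest subunit and the holder of several iron-sulfur clusters, read 9.63, 10.02, 10.6 and 9.77 FPKM at 0h, 5.70, 3.08, 5.40 and 3.29 at 22h and 0.24, 0.15, 0 and 0.48 at 46h. The 0h libraries are tightly grouped, and each stage lies wholly below the one before. It fell by 1.07 at 22h against 0h (SE 0.19, adjusted p = 8.10e-04) and fell by 2.12 at 46h against 22h (SE 0.19, adjusted p = 4.60e-07).

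NDUFV2 holds an iron-sulfur cluster beside NDUFV1 and had the highest mean FPKM of the nuclear-encoded core subunits at each stage. It stood at 89.2, 86.95, 105 and 101 FPKM at 0h, 39.6, 25.8, 32.5 and 26.98 at 22h and 24.01, 17.6, 26.02 and 27.3 at 46h. The 22h libraries are far below the 0h libraries, and the 46h libraries overlap those of 22h. It fell by 1.60 at 22h against 0h (SE 0.18, adjusted p = 3.44e-05), while the change at 46h against 22h was -0.38 (SE 0.18, adjusted p = 0.0971) and did not pass, and with quantile normalization was 0.09. At 46h the mean of NDUFV2 was 23.7 ± 4.33 FPKM (SD, n = 4), whereas NDUFS1 was at 0.218 ± 0.201 and NDUFV1 at 0.0725 ± 0.0991.

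NDUFS3, NDUFS7 and NDUFS8 belong to the core of the Q module. NDUFS3, a scaffold protein that joins the complex early in assembly, read 17.7, 13.7, 21.2 and 26.4 FPKM at 0h, 6.11, 4.18, 3.82 and 4.18 at 22h and 4.39, 3.37, 4.95 and 4.76 at 46h. All 22h and 46h libraries are below all 0h libraries, and the later stages overlap each other. It fell by 1.87 at 22h against 0h (SE 0.20, adjusted p = 2.69e-05), and the change from 22h to 46h was -0.05 (SE 0.20, adjusted p = 0.865). The sign of that second value turned with median-of-ratios scaling (0.24), with quantile normalization (0.46), without replicate 1 of 22h (0.08) and without replicate 2 of 46h (0.05).

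NDUFS7, which holds the cluster that passes electrons to ubiquinone and was named by the supplementary table, read 7.03, 8.37, 10.6 and 20.3 FPKM at 0h, 3.26, 1.55, 4.64 and 0.59 at 22h and 0, 0.15, 0 and 0.04 at 46h. Each stage lies below the one before, and 2 of the 46h libraries are listed at 0. It fell by 1.89 at 22h against 0h (SE 0.36, adjusted p = 0.00125) and fell by 1.59 at 46h against 22h (SE 0.36, adjusted p = 0.00212). NDUFS8, which also carries iron-sulfur clusters, was listed at 0.14, 0.21, 0.20 and 0.04 FPKM at 0h, 0, 0, 0.02 and 0 at 22h and 0.02, 0, 0.02 and 0 at 46h. Some other respiratory chain genes were also at or near 0 in these files, with NDUFAF8 at 0 in every library and UQCR11 at 0.1 FPKM or less, so a value near 0 does not show that a transcript is absent. For NDUFS8 every 0h library was above every later one, with an exact two-sided permutation p of 0.0286 at 22h against 0h and at 46h against 0h, the smallest that 4 against 4 libraries allow, at levels under 1 FPKM throughout.

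Accessory subunits surround the core. Those of the N module that were tested, NDUFS4, NDUFA2, NDUFA6 and NDUFA7, all fell at 46h against 0h, as 39.1% of all genes tested did. NDUFS4, whose loss in mammals gives a severe complex I deficiency, read 82.8, 87.3, 112 and 142 FPKM at 0h, 81.1, 41.4, 49.9 and 38.2 at 22h and 4.56, 2.71, 4.12 and 3.44 at 46h. It is lower in every 22h library than in every 0h library and drops much further after 22h, where it fell by 3.46 (SE 0.24, adjusted p = 4.55e-08), than before, where it fell by 1.03 (SE 0.24, adjusted p = 0.00594).

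NDUFA6, a LYR protein of the matrix arm that also docks the acyl carrier protein, kept the largest share of its level among them. It read 119, 146, 199 and 219 FPKM at 0h, 182, 141, 104 and 86.4 at 22h and 73.6, 55.1, 63.4 and 68.96 at 46h. The 0h and 22h libraries overlap and the 46h libraries are all lower. Its change was -0.42 (SE 0.24, adjusted p = 0.202) in the first interval, not past the thresholds, and -0.92 (SE 0.24, adjusted p = 0.00663) in the second, where it fell. Under quantile normalization the second value was -0.63 and under median-of-ratios scaling -0.56, and passed in neither. At 46h it was the second most abundant member, with 38.3% of its 0h mean.

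NDUFA7 lay between 29.1 and 51.7 FPKM at 0h, between 6.87 and 13.5 at 22h and between 0.62 and 1.44 at 46h. NDUFA2, which has a thioredoxin-like fold, lay between 19.1 and 41.02 FPKM, then between 4.47 and 20.3 and then between 0 and 0.78. Each fell in both intervals, with log2 changes of -1.96 and -2.38 for NDUFA7 and -1.61 and -2.76 for NDUFA2. The NDUFA2 coding sequence has 1 near-identical copy elsewhere in the genome, on chromosome 3 (95% identity), so its reads may be shared.

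The Q module accessory subunits are NDUFA5 and NDUFA9, the latter a nucleotide-binding protein beside the ubiquinone pocket. NDUFA9 lay between 21.3 and 26.8 FPKM at 0h, between 4.88 and 10.1 at 22h and between 0.24 and 0.70 at 46h, with log2 changes of -1.51 and then -2.58. NDUFA5 read 15.3, 14.98, 56.9 and 90.3 FPKM at 0h, 17.2, 10.5, 23.97 and 23.6 at 22h and 0.55, 0.42, 0.28 and 0.48 at 46h. At 0h replicates 3 and 4 are far above replicates 1 and 2, which overlap the 22h libraries, and at 46h all libraries are under 1 FPKM. The change at 22h was -0.86 (SE 0.47, adjusted p = 0.182), with a 95% interval of -1.87 to 0.15, and after 22h it fell by 3.73 (SE 0.47, adjusted p = 1.62e-05). NDUFA5 has 2 near-identical copies, on chromosomes 3 and 9 (up to 92.9% identity).

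In the proximal membrane arm, beside NDUFA8, NDUFC2 and NDUFS5 were tested. NDUFC2, a membrane protein at the base of the arm, read 26.02, 31.5, 35.5 and 44.1 FPKM at 0h, 38.4, 25.1, 20.03 and 21.6 at 22h and 4.64, 3.69, 4.94 and 4.55 at 46h. The first 2 stages overlap and the third is far lower, with -2.28 after 22h (SE 0.21, adjusted p = 7.42e-07) and -0.39 (SE 0.21, adjusted p = 0.174) before.
NDUFS5, another disulfide-held protein of the intermembrane space face, read 2.27, 0.78, 6.41 and 14.4 FPKM at 0h, 1.49, 3.91, 1.31 and 1.78 at 22h and 0.32, 0.31, 0 and 0 at 46h. The 0h libraries are widely scattered, and those of 22h fall within their range. It fell by 1.38 after 22h (SE 0.49, adjusted p = 0.0324), and over the whole period it fell by 2.15 (SE 0.49, adjusted p = 0.00164). The call after 22h was lost without replicate 2 (-1.14) or 4 (-1.41) of 22h, without replicate 2 (-1.44), 3 or 4 (-1.31 each) of 46h, with no filter, with quantile normalization (-0.81) and with the replicate number as a block, and the change at 22h, -0.77 (SE 0.49, adjusted p = 0.252) as deposited, was -1.27 and passed without replicate 2 of 0h and was -0.24 without replicate 4 of 0h. NDUFA3, a small membrane protein named by the supplementary table, was at 10.3, 7.51, 16.03 and 7.52 at 0h and 2.14, 0.42, 1.46 and 0.95 at 22h, and was listed at 0 in all 46h libraries. It passed as lower in the 3 comparisons, except at 46h against 22h under quantile normalization.

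The distal membrane arm holds 10 of the 25 tested members. NDUFB7, a disulfide-held protein of the intermembrane space face like NDUFA8, fell furthest of the 25 members, by 6.87 at 46h against 0h (SE 0.60, adjusted p = 1.78e-07). It read 137, 136, 206 and 357 FPKM at 0h, 34.9, 2.52, 27.6 and 22.97 at 22h and 0, 0.40, 1.09 and 1.55 at 46h. The stages do not overlap, although replicate 2 of 22h is already close to the 46h libraries. Its mean at 46h was 0.364% of that at 0h. NDUFB11, encoded on the X chromosome, read 72.6, 64.4, 77.99 and 70.3 FPKM at 0h, 19.5, 9.97, 25.4 and 18.2 at 22h and 0.34, 1.22, 1.37 and 1.48 at 46h. Here too each stage is wholly below the one before, with changes of -1.97 (SE 0.25, adjusted p = 8.48e-05) and -3.17 (SE 0.25, adjusted p = 1.69e-07). NDUFB10 fell in smaller steps, lying between 27.8 and 41.6 FPKM at 0h, between 10.7 and 16.9 at 22h and between 3.43 and 5.59 at 46h, with changes of -1.18 and then -1.49.

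NDUFAB1 is the mitochondrial acyl carrier protein, which serves in the complex and also in fatty acid and lipoate synthesis. It read 20.8, 22.2, 20.6 and 27.3 FPKM at 0h, 28.04, 25.99, 12.8 and 16.2 at 22h and 0.12, 0, 0.07 and 0.22 at 46h. The 0h and 22h libraries overlap, and at 46h it is at or below 0.22 FPKM in every library. Its change was -0.19 (SE 0.22, adjusted p = 0.549) in the first interval, with a 95% interval of -0.66 to 0.29, and in the second it fell by 4.24 (SE 0.22, adjusted p = 2.01e-09), the largest fall of a member in that interval. Without replicate 3 of 22h the first value was 0.01.

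NDUFB8, whose protein is unstable outside the assembled complex, read 30.03, 24.1, 30.6 and 56.95 FPKM at 0h, 38.00, 29.4, 32.3 and 23.1 at 22h and 6.12, 6.19, 8.12 and 7.45 at 46h. The first stages overlap and all 46h libraries are far lower, with -0.15 (SE 0.24, adjusted p = 0.663) in the first interval and -1.98 in the second, where it fell (SE 0.24, adjusted p = 9.63e-06). Without replicate 4 of 0h, the highest of its stage, the first value was 0.10.

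NDUFB2, a small membrane protein, read 6.79, 8.90, 16.5 and 24.3 FPKM at 0h, 6.90, 9.06, 2.43 and 3.56 at 22h and 3.31, 3.47, 1.48 and 3.05 at 46h. The 22h libraries spread over both neighbouring stages, and the 46h libraries are all below the 0h libraries. It fell by 1.20 at 22h (SE 0.39, adjusted p = 0.03) and did not pass after 22h (-0.67, 95% interval -1.50 to 0.16, adjusted p = 0.169). The first call was lost without replicate 3 (-1.07) or 4 (-0.90) of 0h, without replicate 3 (-0.93) or 4 (-1.07) of 22h, with no filter and in a fit of only these groups.

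NDUFB6, a membrane protein of the distal arm, was the only member to rise in a comparison. It read 9.85, 14.1, 13.1 and 12.3 FPKM at 0h, 12.6, 8.82, 7.30 and 9.28 at 22h and 13.6, 12.99, 14.4 and 20.1 at 46h. Every 46h library is above every 22h library, replicates 1 and 2 lie within the 0h range and replicates 3 and 4 above it. It rose by 0.64 from 22h to 46h (SE 0.19, adjusted p = 0.0129), after -0.36 (SE 0.19, adjusted p = 0.166) in the first interval. The rise did not pass with TPM (0.57), without replicate 3 of 22h (0.53) or without replicate 4 of 46h (0.51). Over the whole period it was 0.28 (SE 0.19, adjusted p = 0.217) as deposited, and it passed as higher under quantile normalization (0.90) and under median-of-ratios scaling (0.65).

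NDUFB1, a very small membrane protein, varied widely between libraries. It read 4.52, 9.60, 15.03 and 40.7 FPKM at 0h, 24.5, 70.01, 30.4 and 20.6 at 22h and 47.8, 4.52, 0 and 30.8 at 46h. Libraries of 1 stage differ widely and the stages overlap, and at 46h replicate 3 is at 0 while replicate 1 is above every 0h library. None of its comparisons passed, with -0.55, 95% interval -2.63 to 1.54, adjusted p = 0.647 at 46h against 0h, and that value was 0.54 without replicate 3 of 46h and 0.01 with quantile normalization. After 22h the change was -1.79 (SE 0.97, adjusted p = 0.144), and without replicate 1 of 46h it was -2.57 and passed.

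2 genes that the symbol rule takes in are not placed in complex I today. NDUFA4 belongs to cytochrome c oxidase, and it was low, at 1.15, 1.18, 1.22 and 3.33 FPKM at 0h, 0.76, 1.66, 2.33 and 0.60 at 22h and 1.64, 0.63, 0.28 and 2.12 at 46h. The stages overlap. The change at 46h against 0h was -0.35 (SE 0.32, adjusted p = 0.366), with a 95% interval of -1.04 to 0.35, and with quantile normalization it was 0.40. In the first interval it was -0.21, and 0.03 without replicate 4 of 0h. In the second it was -0.13, and 0.05 with median-of-ratios scaling, 0.46 with quantile normalization, 0.06 without replicate 3 of 22h and 0.09 without replicate 3 of 46h.

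NDUFA4L2, its hypoxia-inducible relative, was at 0 in 8 of the 12 libraries, with 0, 0, 0 and 0.49 at 0h, 0.16, 0, 0.21 and 0 at 22h and 0, 0, 0 and 0.34 at 46h. NDUFA11, of the proximal membrane arm, did not exceed 0.27 FPKM, with 0, 0, 0.15 and 0 at 0h, 0.27, 0.12, 0.12 and 0 at 22h and 0.12, 0, 0.10 and 0.11 at 46h. Libraries at 0 and above 0 occur at every stage for both genes. The other genes under the filter, NDUFA10, NDUFB4 and NDUFS6, did not exceed 0.77, 1.20 and 0.52 FPKM in any library. For these 5 genes the exact two-sided permutation p was between 0.371 and 1 in the 3 comparisons.

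**Figure D3:**
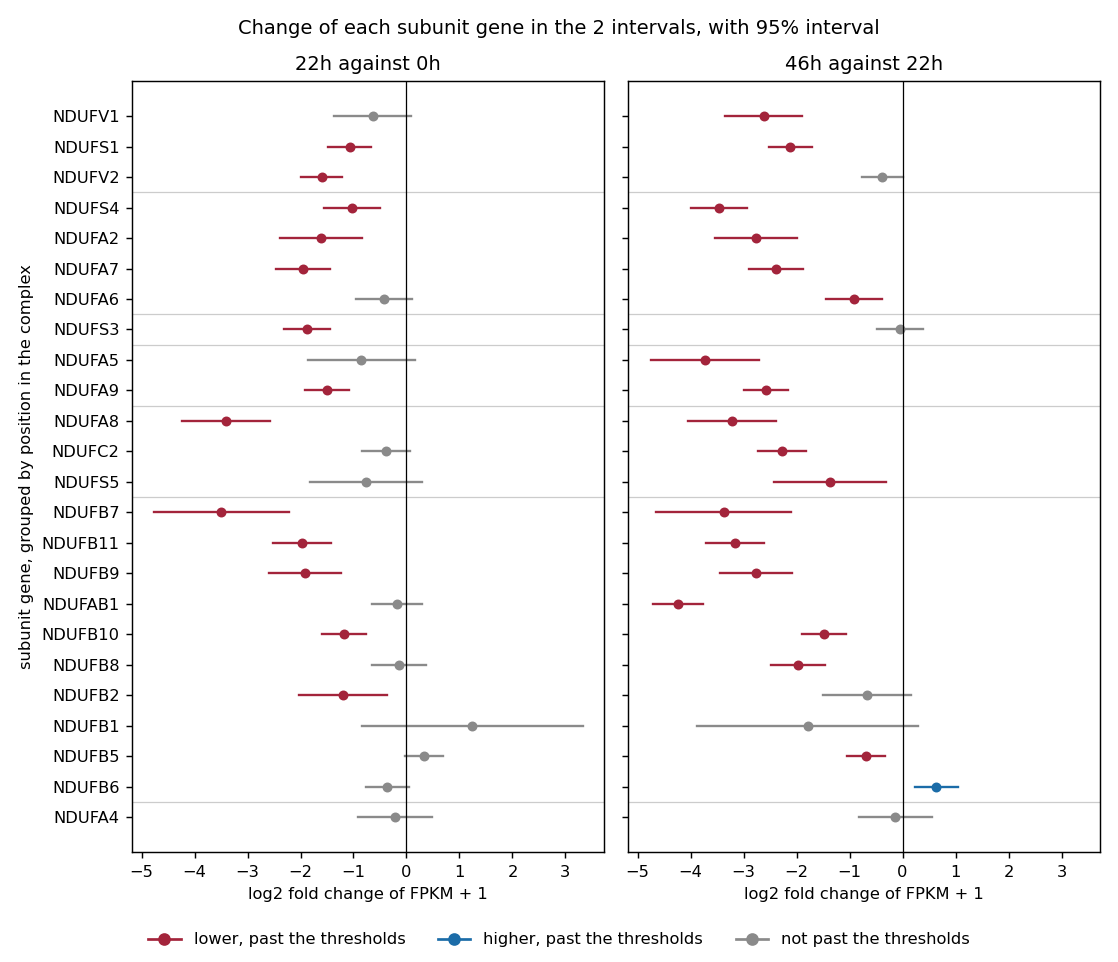
Log2 fold change of FPKM + 1 with its 95% interval for 24 of the 25 tested genes in the first interval (left) and the second (right), grouped by position in the complex from the N module at the top to NDUFA4 at the bottom. Red marks a fall past the thresholds, blue a rise and grey neither, and 13 genes are red on the left and 18 on the right.

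Whether a gene changed differently in the second interval from the first was tested as a contrast of its own, (46h against 22h) minus (22h against 0h). It passed for 12 of the 25 members, where 21.0% of all genes tested passed, with 9 lower (16.2% of all genes) and 3 higher (4.73%). Of the 7013 genes tested, 332 passed as higher as deposited, 582 under median-of-ratios scaling and 860 under quantile normalization. The steeper falls after 22h were those of NDUFAB1 (-4.05, SE 0.38, adjusted p = 4.49e-06), NDUFA5 (-2.87), NDUFS4 (-2.44), NDUFV1 (-1.98), NDUFC2 (-1.89), NDUFB8 (-1.83), NDUFA9 (-1.07), NDUFS1 (-1.05) and NDUFB5 (-1.02). The changes of NDUFS3 (1.83, SE 0.35, adjusted p = 0.00196), NDUFV2 (1.22) and NDUFB6 (0.996) went the other way. Within the N module core NDUFV2 differed in sign from NDUFV1 and NDUFS1. For NDUFA8 the contrast was 0.19 with a 95% interval of -1.24 to 1.61, and for NDUFB7 0.12 with -2.10 to 2.33.

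5 of these 12 calls, those of NDUFAB1, NDUFS4, NDUFC2, NDUFB8 and NDUFS3, held whichever of the 12 libraries was dropped. Of 7013 genes, 1471 passed as deposited and between 1135 and 2179 with a library dropped. How many of all genes kept their call throughout was not counted. NDUFA5 lost its call without replicate 3 or 4 of 22h (-2.60 and -2.62), NDUFV2 without replicate 2 or 4 of 22h (1.06 and 1.10) and NDUFB5 without replicate 1 or 2 of 22h (-0.90 and -0.84). NDUFV1 lost it without replicate 1 of 0h, 1, 3 or 4 of 22h or 4 of 46h (-1.95 to -1.34). NDUFA9 lost it without replicate 1 or 3 of 0h, 1, 3 or 4 of 22h or 2 or 4 of 46h (-1.10 to -0.84), and NDUFS1 without replicate 1 or 3 of 0h, 1 or 3 of 22h or 1, 2 or 3 of 46h (-1.07 to -0.81). NDUFB6 lost it without replicate 2 or 3 of 0h, 2, 3 or 4 of 22h or 1, 3 or 4 of 46h (0.79 to 1.04).
Other settings also ended some of these calls. Under median-of-ratios scaling NDUFA9 (-0.94) and NDUFB5 (-0.71) did not pass, under quantile normalization NDUFA9 (-0.62) and NDUFS1 (-0.65) did not, and 10 members passed under either. Over all genes 1514 and 1711 of 7013 passed, in the same order. With the replicate number as a block NDUFS1 and NDUFB6 did not pass, with TPM computed without the mitochondrially encoded genes NDUFB6 (0.95) did not, and with no filter on low values NDUFA5, NDUFA9, NDUFS1, NDUFV1 and NDUFB6 did not.

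The gene models of the members are compact. In RefSeq the median transcript of the 25 tested members was 694 bases long with 4 exons and a 3′ UTR of 115 bases, next to 2846 bases, 10 exons and 809 bases over 5771 tested genes with a model. Median GC content was 52.9% against 47.0%. Over the 25 members, the log2 change at 46h against 0h had a Spearman correlation of -0.493 with the log2 mean FPKM at 0h. The correlation of the change was -0.489 with transcript GC content and 0.005 with 3′ UTR length. With the other properties looked at it was -0.183 (transcript length), -0.024 (coding length) and -0.115 (promoter GC content). These values are given as a description over genes that share the same libraries.

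Because the cDNA was primed at the poly(A) tail, 30 bases at or near the transcript end are shown for members that fell in both intervals (NDUFA8, NDUFB7, NDUFB9, NDUFB11 and NDUFB10), that fell only in the first (NDUFS3 and NDUFV2) or that did not pass at 46h against 0h (NDUFB5 and NDUFB6). The polyadenylation signal is in capitals, AATAAA or its variant ATTAAA, and for NDUFB10 the capitals mark TTTTAT, the letters of a cytoplasmic polyadenylation element.
NDUFA8, chr1:262243225-262243254, minus strand: ataccatttcctgcccATTAAAaattttaa
NDUFB7, chr2:64723602-64723631, plus strand: AATAAAagcctccaggccccttggcccaaa
NDUFB9, chr4:15105305-15105334, minus strand: cttgccctAATAAAgtaactcaatatggta
NDUFB11, chrX:41770929-41770958, minus strand: gagcacctaATTAAAgggactgaaaatgtg
NDUFS3, chr2:15031150-15031179, minus strand: AATAAAatcctgcttagacacactacttcc
NDUFV2, chr6:98819156-98819185, minus strand: AATAAAgtatgaacctcctgtctacataaa
NDUFB5, chr13:117671486-117671515, plus strand: gAATAAAagatcctcttcattgcttctcaa
NDUFB6, chr10:33864963-33864992, plus strand: ctggaaaagtaactttAATAAAgtttactc
NDUFB10, chr3:40003155-40003184, minus strand: tcaaacgacacaTTTTATtggccccgtttc
In the last 100 bases, read on the transcript strand, TTTTAT was in 1 of the 25 tested members (4.0%), NDUFB10, and in 16.2% of tested genes, while AATAAA was in 60.0% and 60.5%. Where the 3′ UTR is shorter than 100 bases, this window runs into coding sequence, and the model of NDUFAB1 has no 3′ UTR. NDUFB5 and NDUFB6, which did not pass as lower at 46h against 0h, carry AATAAA, as NDUFB7 and NDUFB9 do. That TTTTAT is missing from a window says only that these letters are not there.

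Some values rest on reads that may be shared. The exons of NDUFA2, NDUFA7, NDUFA8, NDUFB1, NDUFB10, NDUFB11 and NDUFS3 overlap a gene on the opposite strand (TMCO6, RPS28, MORN5, CPSF2, RPS2, RBM10 and KBTBD4 in that order), and the libraries are not stated to keep strand, so reads of such pairs cannot be told apart there.

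The other genes of complex I did not all move with these subunits. Of 12 assembly factors tested, 6 were lower at 22h against 0h, 7 at 46h against 22h and 8 at 46h against 0h, and 0 were higher, where 18.9%, 32.6% and 39.1% of all genes tested were lower and 7.84%, 9.87% and 16.8% higher. Their median was -1.41 in the last comparison. TMEM126A, which helps to build the membrane arm, fell by 4.58 at 46h against 0h (SE 0.20, adjusted p = 2.41e-10), from a mean of 36.6 ± 7.53 FPKM to 0.593 ± 0.476 (SD, n = 4). NDUFAF5, which modifies NDUFS7, fell by 4.04 (SE 0.21, adjusted p = 9.77e-10). The changes of TMEM126B, NDUFAF1 and TMEM70 were -2.43, -1.75 and -1.67, all falls. NDUFAF4, in contrast, had 56.1 ± 0.905 FPKM at 0h and 61.9 ± 5.50 at 46h (0.14, SE 0.14, adjusted p = 0.424), and with quantile normalization it passed as higher (0.61).

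The ND subunits, encoded in mitochondrial DNA, went the opposite way on this relative scale. All 7 were higher at 22h against 0h and at 46h against 0h, with medians of 3.02 and 4.07, and 4 were higher at 46h against 22h. Their summed level lay between 905 and 2959 FPKM at 0h and between 24199.9 and 31219 at 46h. Of 27 nuclear-encoded genes of complexes II to V, 16, 14 and 19 were lower in the 3 comparisons and 2, 2 and 2 higher, beside the same shares of all genes (18.9%, 32.6% and 39.1% lower, 7.84%, 9.87% and 16.8% higher). Their median at 46h against 0h was -1.90, next to -2.67 for the complex I subunits, both with a pseudocount of 1. Taken by complex, the median was -0.28 for complex II, -2.08 for III, -1.04 for IV and -3.14 for V. The value of complex V was thus lower than that of complex I. The difference between these lists was not tested.

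**Figure D4:**
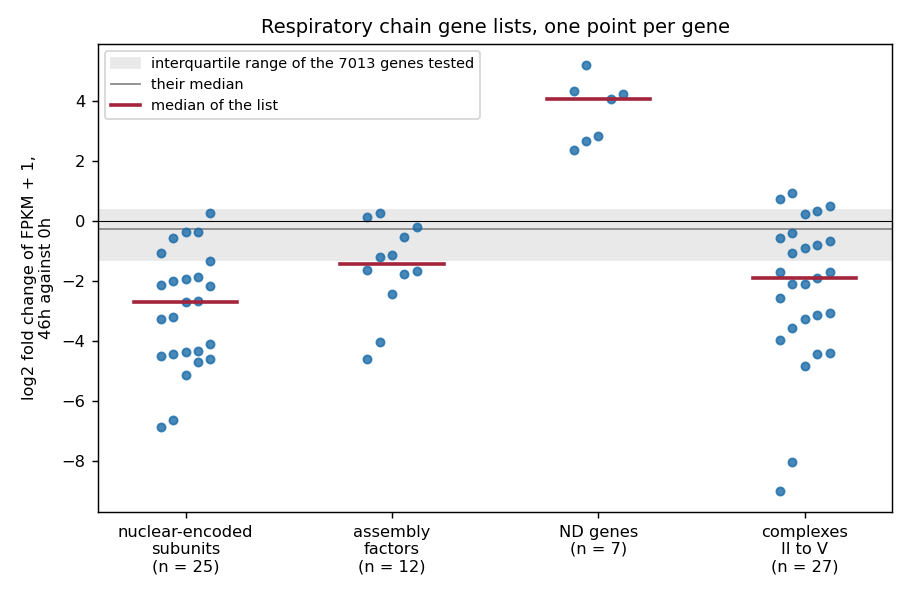
Log2 fold change of FPKM + 1 at 46h against 0h for each gene of 4 lists, with the list's median as a red bar, the interquartile range of all 7013 tested genes as a grey band and their median as a grey line. The medians are -2.67 for the nuclear-encoded subunits, -1.41 for the assembly factors, 4.07 for the ND genes and -1.90 for complexes II to V pooled.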

How the data were processed

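RNA of pooled oocytes was made into cDNA by SMART-Seq2 with oligo-dT priming. The authors aligned the reads to Sscrofa11 with STAR and computed the deposited FPKM values with RSEM, 1 table per library. The study ran its own test on read counts, which were not used here, so the values were tested as log2(FPKM + 1) with limma 3.58.1 (R 4.3.3; lmFit, eBayes with trend, stage as the only term, two-sided), over genes whose mean reached 1 FPKM and with Benjamini-Hochberg adjustment over all of them. The thresholds, an adjusted p of 0.05 and a fold of 1.5, follow the study. A fold on this scale understates the change of low genes. Members under the filter had an exact permutation test. Members, gene lists and tests were chosen with earlier results of these data known, and 1 tested member, counted in the totals, is not reported here by name. Intervals are 95%. Depth is unknown. Symbols came from a reference names table, and gene models and sequences from RefSeq on Sscrofa11.1, matched by symbol. Copies were searched with blastn 2.17.0 at 90% identity over 80% of the coding sequence. The test was tried on simulated data. Alternatives were other pseudocounts, filters, scalings and fits, and each library left out.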

Additional observations from a re-analysis of the deposited data

Results flagged for a closer look

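In 3 of 80 groups of 4 libraries, each a member at a stage, 1 library stood apart from the other libraries by Dixon's ratio at 95%. Chance gives about 1 such flag in 20 groups. NDUFA4 was at 3.33 FPKM in replicate 4 of 0h, where the other replicates were between 1.15 and 1.22. NDUFB10 was at 41.64 FPKM in the same library, where the others were between 27.84 and 29.36. Replicate 4 of 0h was also the highest of its stage in the median over all genes tested (9.66 FPKM, beside 6.88 to 8.07). NDUFB2 was at 1.48 FPKM in replicate 3 of 46h, where the others were between 3.05 and 3.47.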

How the results depend on the processing

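The counts of members that fell stayed within 1.5 times under every alternative run, each library left out included. The 1 member that rose at 46h against 22h, NDUFB6, was 0 with TPM and 0 to 1 with a library left out, and at 46h against 0h the count was 1 under quantile normalization and 1 under median-of-ratios scaling. The count for the difference between intervals, 12, was 7 with no filter on low values, where all genes called also went from 1471 of 7013 to 1097 of 17633, and as low as 7 with a library left out (without replicate 3 or replicate 4 of 22h). Without those libraries all genes called went to 1135 and 1141 of 7013, in that order. The median change of the members at 46h against 22h and at 46h against 0h, -2.12 and -2.67, was -2.82 and -4.20 with a pseudocount of 0.1, -1.49 and -2.13 with no filter, and -1.55 and -2.09 under quantile normalization. At 22h against 0h the median was -1.03 as deposited and -0.64 with no filter, where 31 members entered. The cause of these shifts was not tested. The median of all genes at 46h against 0h was -0.25 as deposited, 0.06 under median-of-ratios scaling, 0.37 under quantile normalization and -0.35 with TPM. Of all calls there, 30.1% were higher as deposited, 46.9% under median-of-ratios scaling and 61.7% under quantile normalization. At 46h against 22h, 32.6% of all genes tested fell as deposited, 25.6% under median-of-ratios scaling and 19.1% under quantile normalization. In the same order, 692, 1407 and 1971 of 7013 genes rose, and 18, 16 and 16 of the 25 members fell.

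Small changes turned sign. At 22h against 0h, with a library left out, NDUFB8 ranged from -0.30 to 0.101, NDUFAB1 from -0.35 to 0.0125 and NDUFA4 from -0.405 to 0.0337. At 46h against 22h, NDUFA4 ranged from -0.34 to 0.0888 with a library left out, and was 0.0525 under median-of-ratios scaling and 0.457 under quantile normalization. NDUFS3 ranged from -0.111 to 0.0759 with a library left out, and was 0.243 and 0.46 in the same order. NDUFV2 was 0.0896 under quantile normalization. At 46h against 0h, NDUFB1 ranged from -1.33 to 0.541 with a library left out and was 0.0103 under quantile normalization, NDUFB5 was 0.0347 under median-of-ratios scaling and NDUFA4 was 0.397 under quantile normalization.

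Replicate numbers were not taken to pair the libraries. Of 12 same-number pairs, r was -0.466 to 0.381 and over 0.1 in 3, all between 22h and 46h (0.381, 0.211 and 0.127, with 0.0088 for the fourth), and the own number correlated best in 7 of 24 cases. With the replicate number as a block, 13, 17 and 21 members fell in the 3 comparisons, 1 rose at 46h against 22h and 10 passed for the difference between intervals. In the same fit 18.5%, 32.3% and 39.0% of all genes tested fell. Of 7013 genes, 670 rose at 46h against 22h and 1304 passed for the difference between intervals. Values without counts limit what can be said of genes near 0 FPKM.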
